A study of Caenorhabditis elegans with 6 samples.

Results

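Fat is stored in *C. elegans* mainly in lipid droplets of the intestine and the hypodermis, as triglyceride that is built, coated and broken down by a small set of proteins. The genes described here are 9 of them, chosen by symbol: *pod-2* and *fasn-1* for the synthesis of fatty acids, *lpin-1* and *dgat-2* for the assembly of triglyceride, *seip-1* and *plin-1* for the droplet itself, and *atgl-1*, *lid-1* and *hosl-1* for cytosolic lipolysis. All 9 were found by their WormBase identifiers among the 46904 gene identifiers of the count table, and all 9 passed the filter on low values. RNA came from whole N2 worms, the wild-type laboratory strain, grown at the same temperature on plates with OP50 bacteria and moved as young adults either to control plates or to plates with 50 µM CGP37157, a benzothiazepine inhibitor of the mitochondrial Na+/Ca2+ exchanger. Worms of both groups went to fresh plates daily and were washed free of eggs and larvae before RNA extraction at day 5 of treatment. There were 3 libraries in each group, and the labels name no vehicle for the control plates, nor say whether the libraries of a group came from separate cultures, so that p-values measure the spread between these libraries. Control and treated libraries with the same replicate number also share a suffix in their titles, which differs between numbers and whose meaning the labels do not give.

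Fatty acids are made from acetyl-CoA, which acetyl-CoA carboxylase turns into malonyl-CoA and fatty acid synthase extends to palmitate. Acyl chains are then joined to glycerol phosphate, lipin removes the phosphate, and a diacylglycerol acyltransferase adds the last chain to give triglyceride. Seipin and perilipin act at the droplet, and adipose triglyceride lipase starts the release of fatty acids, with hormone-sensitive lipase acting after it. In whole-worm RNA, fewer cells of a type and less RNA per cell cannot be told apart.

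The gene *dgat-2* had the largest difference of the 9, at 0.456 of its control level in treated worms, while the other 8 lay between 0.815 and 1.12 of theirs. Levels are CPM (counts scaled to a common library size) after TMM, a scaling that takes account of library totals and of a few dominant genes, and the groups were compared with edgeR's quasi-likelihood test over the 12385 genes that reached 1 CPM in 3 or more libraries. An adjusted p (Benjamini-Hochberg) under 0.05 was found for 0 of the 9 genes in either direction, beside 1.16% of all tested genes that were higher and 0.234% that were lower in treated worms. An unadjusted p under 0.05 was found for 1 of the 9, *dgat-2*, beside 4.79% of all tested genes. The smallest adjusted p of the 9 was 0.0814, again for *dgat-2*. With DESeq2 on the same counts, 1 of the 9, the same gene, passed an adjusted p of 0.05, beside 2.10% of all tested genes. The median log2 fold change of the 9 genes was -0.081, beside -0.014 for all tested genes. Of the 9 values 7 were below 0 and 2 above, beside 6517 below and 5868 above among all tested genes.

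**Figure D1:**
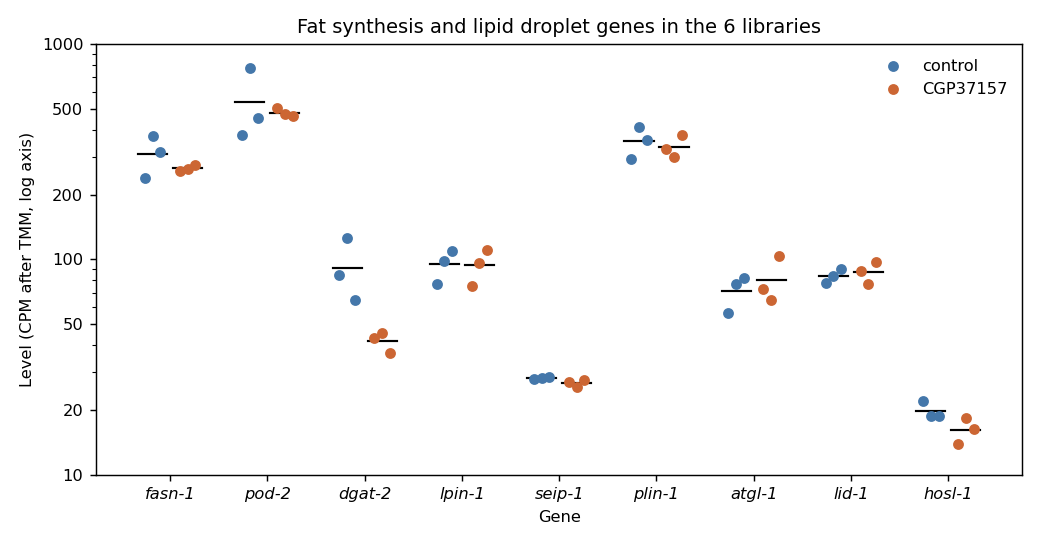
Level of each of the 9 genes in CPM after TMM on a log axis, with 1 point per library (control blue, CGP37157 orange, replicates 1 to 3 from left to right) and a line at the mean of 3 libraries. For *dgat-2* the 3 treated libraries lie between 36.6 and 45.7 CPM, below the lowest control library at 64.6 CPM, and for most other genes the groups overlap.

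*dgat-2* (WBGene00010296) encodes an acyl-CoA:diacylglycerol acyltransferase, the enzyme of the last step of triglyceride synthesis, which works at lipid droplets. It lies on chromosome V from 17660303 to 17661810 on the plus strand (WBcel235), with 1 annotated transcript and 1172 bases of exon. It received 2018, 2175 and 1417 reads in control replicates 1, 2 and 3, and 981, 1250 and 855 reads in CGP37157 replicates 1, 2 and 3. After TMM these were 84.4, 126 and 64.6 CPM in the control libraries and 43.2, 45.7 and 36.6 CPM in treated worms. The groups did not overlap, control replicate 2 was the highest of the 6 libraries, and the treated libraries were closer to each other than the control libraries were. The mean of 3 libraries was 91.8 ± 31.5 CPM (SD) without and 41.8 ± 4.71 CPM (SD) with the compound. This gave a log2 fold change of -1.13 (standard error 0.26, 95% interval from -1.71 to -0.56), with an adjusted p of 0.0814 in the quasi-likelihood test of edgeR. It ranked at place 204 by p among the tested genes, of which 173 passed the adjusted threshold.

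Whether *dgat-2* passed depended on the test and on single libraries, while its direction did not. Its adjusted p was 0.00569 with DESeq2, 0.00523 with edgeR's likelihood ratio test and 0.0124 in the quasi-likelihood test without the low-count filter, and over the 13 alternatives it ranged from 0.00523 to 0.398. Of the 6 fits that left out a library it passed in 1, that without control replicate 3 (log2 fold change -1.33, adjusted p = 0.0399). Without control replicate 2, the library with the highest level, the log2 fold change was -0.83 (adjusted p = 0.0979). Leaving out CGP37157 replicate 3 gave the weakest call, at -1.03 (adjusted p = 0.398). The gene was below its control level in each of the 13 alternatives, which share the same libraries. Since its groups did not overlap, leaving out a library could not reverse this, so the direction in those fits was fixed in advance.

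**Figure D2:**
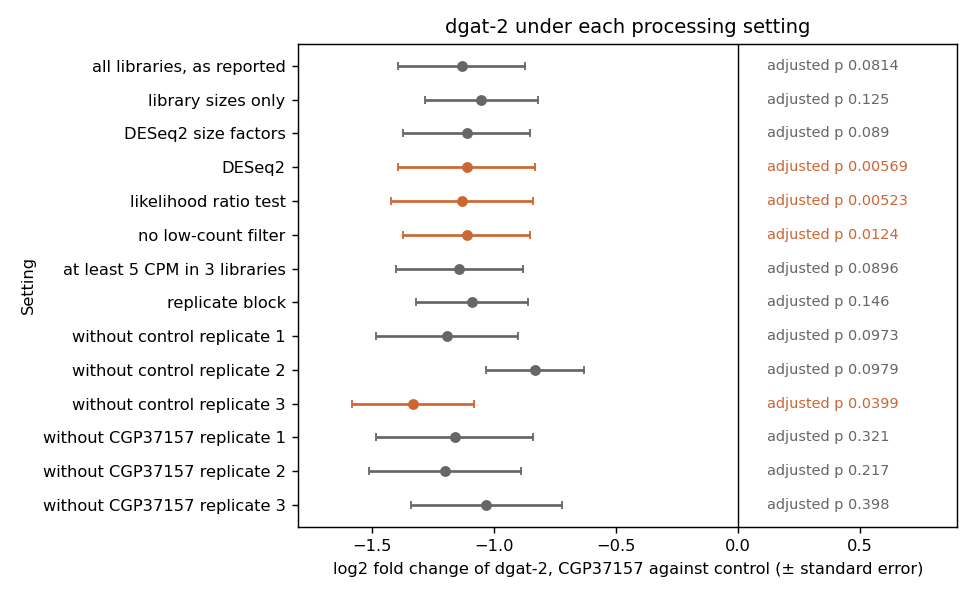
log2 fold change of *dgat-2* (CGP37157 against control, bars are ± 1 standard error) in the fit as reported and in each alternative, with its adjusted p. Points in orange have an adjusted p under 0.05. All values lie between -1.33 and -0.83, and 4 of the 13 alternatives pass.

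The exons of *dgat-2* share 57 bases with those of *F59A1.11* on the other strand. That gene was between 0.257 and 0.585 CPM in the 6 libraries, too low to be tested. The kit keeps the strand of the RNA, but whether counting used it is not given in the sources used here. The annotation also places a pseudogene on each strand within the span of *dgat-2*, and neither shares exon bases with it.

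Genes close to *dgat-2* in role had values nearer to their control levels. *mboa-2*, the relative of the mammalian DGAT1 enzymes, had 46.3, 66.1 and 56.5 CPM in the control libraries and 44.9, 57.2 and 58.9 CPM in treated worms. The groups overlapped, with a log2 fold change of -0.07 (95% interval from -0.54 to 0.41, adjusted p = 1.00, edgeR). *dgtr-1*, which belongs to the same family as *dgat-2* and is needed for the lipid layer of the eggshell, had a log2 fold change of 0.21 (95% interval from -0.41 to 0.83, adjusted p = 1.00). Levels of *dgtr-1* ran from 16.2 to 26 CPM in the control libraries and from 18.6 to 34.2 CPM in treated worms. Both genes were singled out for their role after their values were known. *acs-22*, the fatty acid transport protein whose product acts with DGAT-2 in droplet growth, had 73.1, 69.3 and 73.3 CPM in the control libraries and 63.0, 63.6 and 61.9 CPM in treated worms. Its groups did not overlap, but the difference was small, with a log2 fold change of -0.20 (95% interval from -0.59 to 0.20, adjusted p = 1.00).

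Per kilobase of exon, *dgat-2* stood at 2.85, 2.99 and 1.79 times the level of *mboa-2* in control replicates 1, 2 and 3. In CGP37157 replicates 1, 2 and 3 it stood at 1.50, 1.25 and 0.972 times that level. All 3 treated ratios were below all 3 control ratios, a mean difference of -1.02 on the log2 scale. An exact permutation test over the 6 libraries gave a two-sided p of 0.100 (0.300 adjusted over the 3 ratios tested), the smallest that 3 against 3 libraries can give. The ratio was chosen because *dgat-2* was known to differ.

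**Figure D3:**
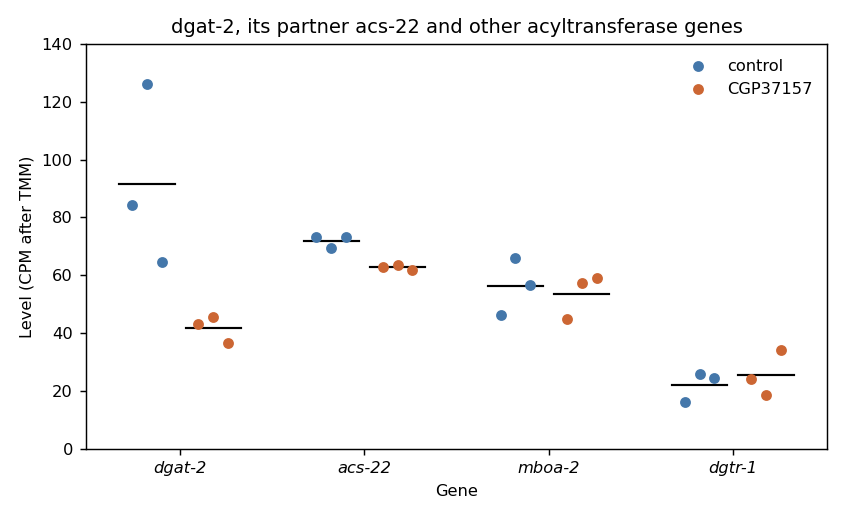
Level in CPM after TMM (axis from 0) of *dgat-2*, its partner *acs-22*, and the acyltransferase genes *mboa-2* and *dgtr-1*, with 1 point per library and a line at the mean of 3. Treated libraries sit at 36.6 to 45.7 CPM for *dgat-2* and at 44.9 to 58.9 CPM for *mboa-2*, where they overlap the control libraries.

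The other gene of triglyceride assembly, *lpin-1* (WBGene00010425, chromosome V from 13650262 to 13654129), encodes lipin, the phosphatidate phosphatase that makes diacylglycerol, the substrate of DGAT-2. Its levels were 76.5, 98.7 and 109.6 CPM in the control libraries and 75.4, 95.8 and 110.3 CPM in treated worms. The groups covered almost the same range. The log2 fold change was -0.02, with a 95% interval from -0.51 to 0.48, that is from 0.703 to 1.39 of the control level.

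Neither gene of fatty acid synthesis passed. *pod-2* (WBGene00004076, chromosome II from 1136785 to 1152705) encodes acetyl-CoA carboxylase, and its levels were 378, 777 and 451 CPM in the control libraries and 506, 472 and 464 CPM in treated worms. Control replicate 2 was far above the other 5 libraries, and the treated libraries lay between the lowest and the highest control library. The log2 fold change was -0.16 (95% interval from -0.79 to 0.48, adjusted p = 1.00, edgeR), and without control replicate 2 it was 0.21 (adjusted p = 0.987), so that its sign rests on that library. *fasn-1* (WBGene00009342, chromosome I from 8975366 to 8986540), the fatty acid synthase gene, showed 239, 372 and 315 CPM in the control libraries and 257, 264 and 275 CPM in treated worms. Its treated libraries again lay within the control range, with a log2 fold change of -0.22 (95% interval from -0.71 to 0.27). The exons of *pod-2* share 139 bases with those of *W09B6.4* on the other strand, which was between 16.5 and 23.5 CPM.

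In both enzymes the spread between control libraries, after TMM, was wider than that between treated libraries. The coefficient of variation of *pod-2* was 39.7% in control worms and 4.66% in treated worms, and that of *fasn-1* was 21.6% and 3.35%. In reads, *fasn-1* had 5718, 6403 and 6899 in the control libraries and 5846, 7235 and 6431 in treated worms. Its wider control spread thus depends on the scaling, in which control replicate 2 had a TMM factor of 0.815. *pod-2* had 9042, 13370 and 9878 reads in the control libraries and 11489, 12906 and 10844 in treated worms, where the control spread stayed wider. The spread of these groups of 3 was not compared by a test. The ratio of *pod-2* to *fasn-1*, per kilobase of exon, was 1.95, 2.57 and 1.77 in control worms and 2.42, 2.20 and 2.08 in treated worms. Those ranges overlapped (exact permutation test, two-sided p = 0.500, adjusted p = 0.600).

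Neither droplet gene passed. *seip-1* (WBGene00019808, chromosome V from 6051377 to 6053238) encodes seipin, which acts where droplets form on the endoplasmic reticulum. After TMM it was the least variable of the 9, with 27.7, 28.1 and 28.3 CPM in the control libraries and 27.1, 25.5 and 27.4 CPM in treated worms. The control libraries had 663, 483 and 621 reads of it at nearly equal total counts, so that this steadiness depends on the scaling. The groups did not overlap, but the margin was small, and the log2 fold change of -0.07 had a 95% interval from -0.49 to 0.34 (adjusted p = 1.00, edgeR). *plin-1* (WBGene00007024, chromosome I from 7057192 to 7059351) encodes perilipin, a coat protein of the droplet. Its levels were 293, 411 and 357 CPM in the control libraries and 324, 300.0 and 378 CPM in treated worms. The groups overlapped, with a log2 fold change of -0.08 (95% interval from -0.57 to 0.41).

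The genes of cytosolic lipolysis did not pass either. *atgl-1* (WBGene00015484, chromosome III from 6415772 to 6419459) encodes adipose triglyceride lipase, with levels of 56.6, 76.8 and 81.7 CPM in the control libraries and 72.5, 65.1 and 104 CPM in treated worms. CGP37157 replicate 3 was above the other 5 libraries, and the other treated libraries lay within the control range. The log2 fold change of *atgl-1* was 0.17 (95% interval from -0.37 to 0.70), and -0.04 without CGP37157 replicate 3. *lid-1* (WBGene00007711, chromosome I from 10191273 to 10192832) encodes a droplet protein that binds ATGL-1 and resembles the mammalian cofactor of that lipase. Its levels ran from 77.8 to 90.6 CPM in the control libraries and from 77.1 to 97.3 CPM in treated worms, with a log2 fold change of 0.06 (95% interval from -0.36 to 0.47). Per kilobase of exon, the ratio of *atgl-1* to *lid-1* ran from 0.365 to 0.458 in control and from 0.410 to 0.535 in treated worms (exact permutation test, two-sided p = 0.600, adjusted p = 0.600).

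*hosl-1* (WBGene00016704, chromosome X from 4637121 to 4643695) encodes the hormone-sensitive lipase. It had 22, 18.8 and 18.8 CPM in the control libraries and 13.9, 18.3 and 16.3 CPM in treated worms. The groups did not overlap, although CGP37157 replicate 2 was close to the control libraries. The log2 fold change was -0.30 (standard error 0.21, 95% interval from -0.76 to 0.17, adjusted p = 1.00, edgeR). With *dgat-2* and *seip-1*, this made 3 of 9 genes whose groups did not overlap, all lower in treated worms, beside 7.54% of all tested genes in either direction, 3.69% lower and 3.85% higher. These counts were made on levels after TMM. In reads the groups of *hosl-1* overlapped, with 525, 324 and 412 in control and 316, 501 and 381 in treated libraries. Those of *seip-1* also overlapped, with 663, 483 and 621 against 615, 699 and 640 reads, while those of *dgat-2* did not.

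Relative to its own mean over the 6 libraries after TMM, each gene showed which library it was high in. Control replicate 2 held the highest level of the 6 for 4 of the 9 genes, *fasn-1*, *pod-2*, *dgat-2* and *plin-1*, and was the lowest for 0. For *fasn-1* and *plin-1* this place depends on its TMM factor of 0.815. At nearly equal total counts, control replicate 3 had more reads than control replicate 2 for *fasn-1* (6899 against 6403) and *plin-1* (7830 against 7076). Control replicate 1 was the lowest of the control libraries for 7 of the 9. CGP37157 replicate 3 was the highest treated library for 6 of the 9 and the lowest for *dgat-2* and *pod-2*. Among treated libraries *dgat-2* and *atgl-1* therefore stood in opposite places in that library, at -0.73 and 0.47 on the log2 scale.

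**Figure D4:**
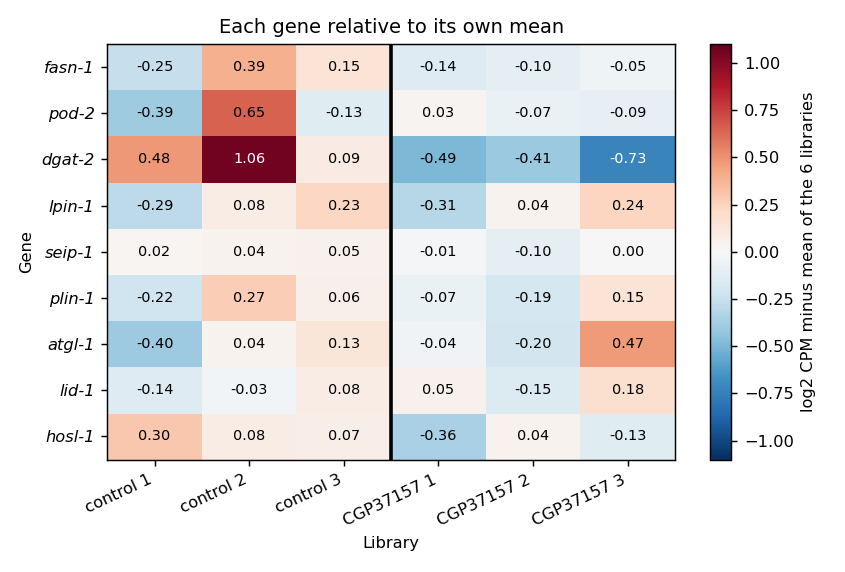
log2 CPM of each gene minus its mean over the 6 libraries (rows are genes, columns are libraries, red above and blue below the mean, values printed in the cells). *dgat-2* is above its mean in all 3 control libraries (0.48, 1.06 and 0.09) and below it in all 3 treated libraries (-0.49, -0.41 and -0.73), and *seip-1* stays within -0.10 and 0.05.

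Per kilobase of exon, the levels of the 9 genes in control worms covered a wide range. *plin-1* was highest, at 186 ± 31.2 CPM per kilobase (SD, n = 3), at place 617 of the 12385 tested genes. *dgat-2* (78.3 ± 26.9), *pod-2* (78.1 ± 31) and *lid-1* (63.6 ± 4.85) followed and overlapped each other. *fasn-1* (36.5 ± 7.89), *lpin-1* (31 ± 5.51), *seip-1* (28.4 ± 0.305) and *atgl-1* (27.2 ± 5.04) came next and also overlapped as neighbours. *hosl-1* was lowest, at 5.77 ± 0.528 CPM per kilobase and place 7933. In treated worms *dgat-2* stood at 35.7 ± 4.02 CPM per kilobase, between *lid-1* (66.2 ± 7.65) and *fasn-1* (31.4 ± 1.05), and moved from place 1520 to place 3132 among all tested genes. The order of the other 8 was otherwise the same, apart from *seip-1* and *atgl-1*, which changed places within their spread.

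Other genes of fat storage were examined as 4 lists written from general knowledge. Of 44 genes 43 were tested. With edgeR's quasi-likelihood test 0 passed an adjusted p of 0.05, beside the 1.16% higher and 0.234% lower of all tested genes. With DESeq2 0 passed as well, beside 2.10% of all tested genes. An unadjusted p under 0.05 was found for 1 higher and 1 lower gene, beside 4.79% of all tested genes in either direction (edgeR). Their log2 fold changes ran from -0.80 to 0.66 around a median of -0.058. Negative values were found for 26 of the 43, beside 6517 of the 12385 tested genes. Groups did not overlap for 4 of the 43, beside 7.54% of all tested genes.

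Among 10 genes of fatty acid supply and its regulators, the largest differences were those of *mxl-3* and *sbp-1*. *sbp-1* encodes the sterol regulatory element binding protein, the transcription factor that drives lipogenic genes, and had 64.7, 76.2 and 66.8 CPM in the control libraries and 58.3, 52.8 and 58.1 CPM in treated worms. The groups did not overlap, and the log2 fold change was -0.30 (95% interval from -0.70 to 0.11, adjusted p = 1.00, edgeR). *mxl-3* encodes a repressor of lysosomal lipase genes, and its log2 fold change was -0.48 (95% interval from -1.05 to 0.10). In glycerolipid synthesis, with 23 genes, *gpdh-1*, a glycerol-3-phosphate dehydrogenase known for its induction by osmotic stress, had 69.8, 115 and 55.1 CPM in the control libraries and 55.5, 40.7 and 41.2 CPM in treated worms. One treated library thus reached the lowest control library, and its log2 fold change was -0.80, with an adjusted p of 0.546. *acl-7*, an acyltransferase of ether lipid synthesis, was the one gene of the 4 lists whose treated libraries were all higher, at 36.8, 24.2 and 25.7 CPM against 20.5, 18.1 and 16.1 CPM. Its log2 fold change was 0.66, with an adjusted p of 0.547 (edgeR).

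The droplet list held 5 genes. *dhs-3*, a short-chain dehydrogenase found on lipid droplets, had 70.0, 78.2 and 63.4 CPM in the control libraries and 57.5, 61.1 and 55.1 CPM in treated worms, without overlap. Its log2 fold change was -0.28 (95% interval from -0.70 to 0.13, adjusted p = 1.00, edgeR). The entry *mdt-28* of this list is a symbol once used for *plin-1* and now held by a Mediator subunit gene, so its value is not that of a droplet protein, although it is in the counts. Among the 5 tested cofactor and kinase genes of lipolysis, the largest differences were those of *abhd-5.2*, a relative of *lid-1* (log2 fold change -0.16), and *kin-1*, the catalytic subunit of protein kinase A (-0.12). The symbol *abhd-5.3* was not matched and was not analysed here.

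**Figure D5:**
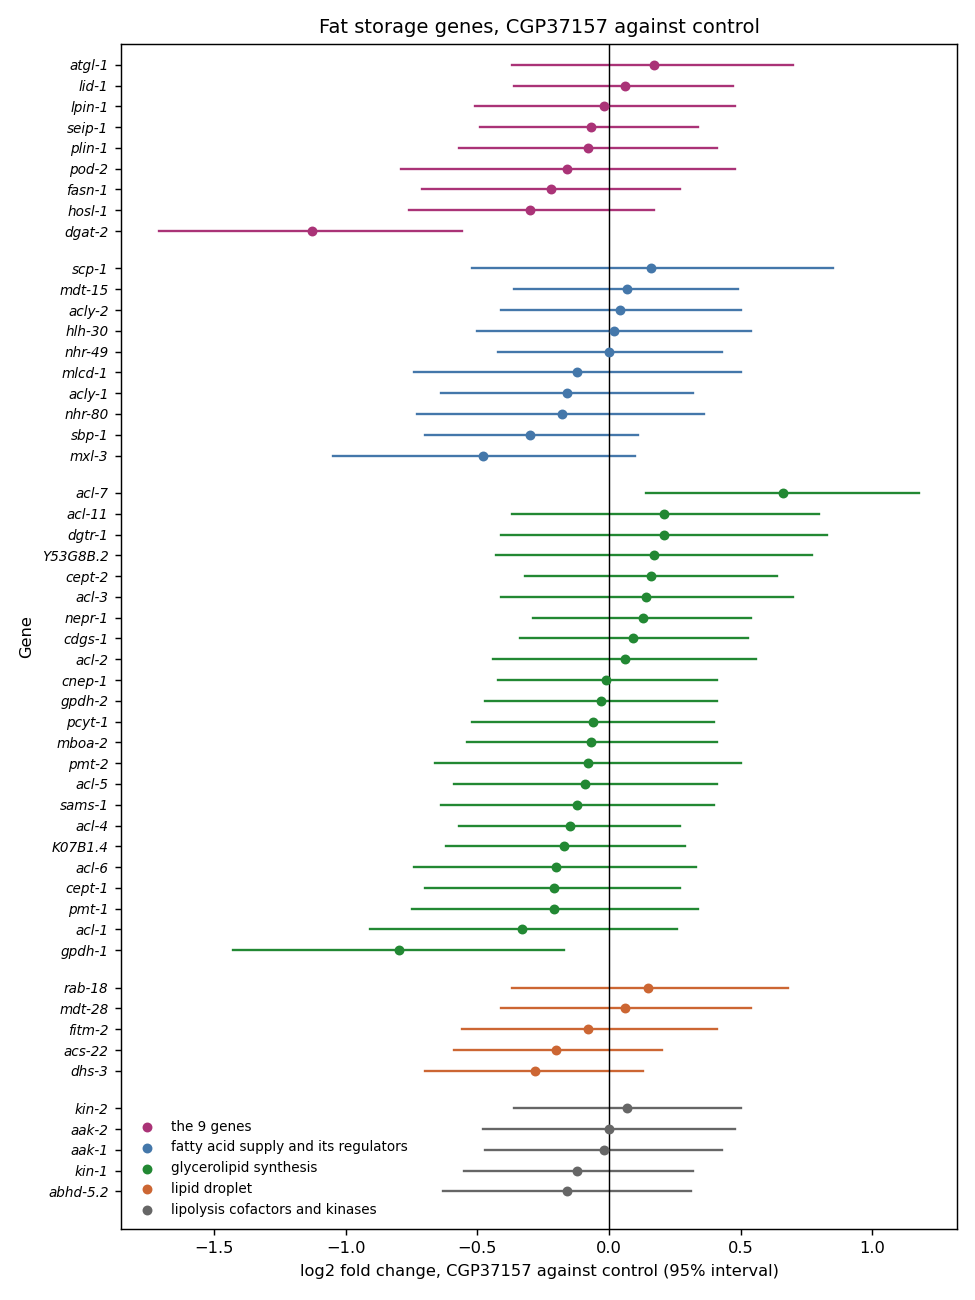
log2 fold change (CGP37157 against control) with its 95% interval for the 9 genes and the 43 tested genes of the 4 other lists, in edgeR's quasi-likelihood fit. *dgat-2*, *gpdh-1* and *acl-7* are the genes whose interval does not include 0, and none of the 52 passes an adjusted p of 0.05.

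By the root mean square distance of centred log2 CPM over the 6 libraries, the tested genes most like *dgat-2* were *F22F7.8* (distance 0.140), the ferritin gene *ftn-1* (0.149) and the non-coding *linc-35* (0.149), beside a median distance of 0.669 for all tested genes. *ftn-1*, which encodes an iron storage protein, had 65.6, 99.2 and 60.7 CPM in the control libraries and 39.7, 46.1 and 28.8 CPM in treated worms. *F22F7.8* was at 1.75 to 6.33 CPM and *linc-35* at 0.727 to 2.27 CPM. None of the 3 passed, with adjusted p of 0.171, 0.181 and 0.769 in the same order (edgeR). The likeness describes these 6 libraries only.

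Total counts per library ranged from 21122852 to 24551795. Even *hosl-1* had at least 316 reads in every library, and counting error was smaller than the spread between replicates for all of the 9 genes but *seip-1*. Control replicate 2 stood apart from the others, with a TMM factor of 0.815 against 0.955 to 1.128 and the farthest place on the first principal component. Of 44 marker genes of 6 tissues 36 were tested, and 0 had an adjusted or an unadjusted p under 0.05 with edgeR. Among all tested genes, 1.16% were higher and 0.234% lower by adjusted p, and 4.79% had an unadjusted p under 0.05. The summed level of 7 matched intestine markers was 55242 to 101693 CPM in the control libraries and 53977 to 59887 CPM in treated worms, while 2 of the 7 had a log2 fold change below 0 and their median was 0.12. The sum of 6 body wall muscle markers was 2741 to 5350 CPM and 2461 to 3470 CPM. Values below 0, the direction of *dgat-2*, were found for all 6 muscle markers (median log2 fold change -0.38) and all 6 neuron markers (-0.10). They were found for both tested hypodermis markers (-0.19), 4 of 5 tested sperm markers (-0.05) and 2 of 10 oocyte and embryo markers (0.09). Of all 12385 tested genes, 6517 had a value below 0. The part of these tissues in the difference of *dgat-2* was not tested. Those of oocytes and embryos summed to 5986 to 9028 CPM in control and 5993 to 8730 CPM in treated worms, and those of sperm to 4.73 to 14.5 CPM and 6.87 to 10.9 CPM, with 1 of 8 at 0 in all libraries. Hypodermis markers summed to 1036 to 1856 CPM and 971 to 1552 CPM, with *dpy-7*, *rol-6*, *dpy-13* and *bli-1* too low to be tested, and neuron markers to 355 to 472 CPM and 340.1 to 405 CPM.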

How the data were processed

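The 3 control and 3 CGP37157 libraries were sequenced by the authors with a stranded mRNA kit and paired-end reads. The authors deposited whole-number read counts for each gene, without normalization, and the submitters' processing notes name HISAT2 and featureCounts, while versions and genome build are not given in the sources used here. The deposited tables also hold normalized values, fold changes and p-values of the authors' own DESeq2 and edgeR comparisons, none of which were used. Symbols were found for 44017 of 46904 identifiers, and positions and exon lengths come from Ensembl's WBcel235 annotation.

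Counts were compared with edgeR 4.0.16 (quasi-likelihood test, TMM, condition only) in R 4.3.3, on genes with at least 1 CPM in 3 libraries, with Benjamini-Hochberg adjustment over all tested genes. Standard errors and 95% intervals derive from the test statistic. Replicates differed by more than sampling noise (chi-square per degree of freedom at least 47.4). Scripts were tested on simulated data. The genes and lists were chosen with earlier results of these data known. Beside the 9 genes, those with an adjusted p under 0.05 and the 2 largest differences of each list were named, and the 3 genes most like the gene with the smallest p. Alternatives were DESeq2 1.42.0, other normalizations and filters, the likelihood ratio test, leaving out each library in turn and a block for the replicate number.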

Additional observations from a re-analysis of the deposited data

How the results depend on the processing

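For all tested genes, 144 were higher and 29 lower in treated worms (adjusted p under 0.05). The number of lower genes was 17 with library sizes only, 60 for DESeq2, 66 for the likelihood ratio test and 66 without a low-count filter, and between 12 and 34 with a library left out, 12 without CGP37157 replicate 1, 17 without CGP37157 replicate 3 and 19 without CGP37157 replicate 2. Of the 9 genes, *dgat-2* alone (1 gene) passed with DESeq2, in the likelihood ratio test or without the filter, and between 0 and 1 passed with a library left out. None of the 43 other genes of fat storage passed under any of the 13 alternatives. Of 117 values of the 9 genes under the alternatives, 102 kept direction and side of the threshold, 4 passed it and 11 changed sign without passing. These were *lpin-1* (0.03 with library sizes only, 0.01 with DESeq2 size factors, 0.01 with DESeq2, 0.01 without the filter, and 0.01, 0.10 and 0.12 without control replicate 2, control replicate 3 and CGP37157 replicate 1), *pod-2* (0.21) and *plin-1* (0.04) without control replicate 2, and *atgl-1* (-0.04) and *lid-1* (-0.01) without CGP37157 replicate 3. With a library left out, values ran from -0.35 to 0.21 for *pod-2*, -0.15 to 0.12 for *lpin-1*, -0.20 to 0.04 for *plin-1*, -0.04 to 0.30 for *atgl-1* and -0.01 to 0.14 for *lid-1*. The cause of these changes was not tested.

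The residual correlation of same-numbered libraries was positive for replicates 1 and 3 (0.105 and 0.387) and negative for replicate 2 (-0.508). Deviations from a mean of 3 libraries are not independent, so these values cannot decide whether same-numbered libraries are pairs. The comparison was made without pairs. With the replicate number, which coincides with the shared title suffix, as a block (replicate block), 117 genes were higher and 20 lower, and *dgat-2* had a log2 fold change of -1.09 (adjusted p = 0.146, edgeR). With 3 libraries per group, the 95% intervals of the 8 other genes do not exclude levels as low as 0.579 of control for *pod-2* or as high as 1.62 for *atgl-1*, and are narrower for the others.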
